A study of Mus musculus with 19 samples.

Results

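Hippocampal transcripts of APP/PS1 mice given vehicle (7 arrays) were compared with those of their wild-type (WT) littermates given vehicle (6 arrays). These are the 13 arrays whose titles name an APP/PS1 vehicle or a WT vehicle hippocampus, of 19 arrays in the series; the other 6 are APP/PS1 mice given urolithin A. By the study's design text both groups received the vehicle, DMSO, by gavage from 6 to 8 months of age, and the labels give 8 months as the age. There was no untreated group, so DMSO and gavage were common to both. The APP/PS1 mice carry human disease-linked forms of APP and presenilin 1 as transgenes, driven in this strain by the promoter of the mouse prion protein gene, mainly in neurons of the brain. The numbers of arrays equal the group sizes of the design text, and an array is treated here as 1 mouse, although no label ties an array to an animal. In the main fit the urolithin A arrays only helped to estimate the spread between arrays. They also counted in the filter on dim probes, the choice of each gene's brightest probe, the quantile normalization and the fits with a covariate.

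Amyloid deposits in this model draw microglia and reactive astrocytes around them, and microglia there switch on phagocytic, antigen presentation and lysosomal genes. Neurons signal through voltage-gated channels, a presynaptic release machinery built on SNARE proteins, and receptors on the postsynaptic side, and they depend on glycolysis and mitochondria for energy. Because the microglial changes are the strongest ones, a list of 330 measured microglial and immune genes was set aside, and the genes and pathways outside it are described here.

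A level is the log2 of the array signal relative to that array's 75th percentile, and a difference is APP/PS1 minus WT on that log2 scale with the standard error (SE) of the limma fit. A gene rose or fell where its adjusted p (Benjamini-Hochberg over 25599 genes) was under 0.05. Levels of different genes come from different probes and are not compared. In bulk tissue, fewer cells of a type and less RNA per cell cannot be told apart.

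The labels were checked first on Prnp, the prion protein gene. Its level ran from 6.70 to 7.05 with a median of 6.98 in WT arrays and from 8.47 to 8.93 with a median of 8.61 in APP/PS1 arrays. All 7 APP/PS1 arrays lay above all 6 WT arrays, and the difference of 1.67 (SE 0.10, limma adjusted p = 1.43e-08) was 1.54 within slide 1. A second, dimmer Prnp probe differed by -0.14 (SE 0.11, adjusted p = 0.46 over all probes). The files do not say where either probe lies relative to the transgenes, so the rise at 1 probe is not a measurement of the mouse's own gene. App, the amyloid precursor gene, differed by -0.40 at its brighter probe (SE 0.10, adjusted p = 0.0291) and by 0.52 at the other (SE 0.22, adjusted p = 0.17), so no direction is given for it. As reference values, the microglial genes Cst7 and C1qa differed by 6.18 (SE 0.25) and 0.86 (SE 0.09). Cst7 was well above background on 2 of the 6 WT arrays and on all 7 APP/PS1 arrays, so the size of its difference is uncertain.

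Several features of the arrays moved with the groups. Slide 1 held the 6 WT arrays and 2 APP/PS1 arrays, and slide 2 held the other 5 APP/PS1 arrays, so only slide 1 allows a comparison within a slide. By Xist and Y-linked genes, 1 of 6 WT and 3 of 7 APP/PS1 arrays were female. The 75th percentile of the signal was 1167 to 1776 intensity units in WT and 664 to 1417 in APP/PS1 arrays. The mean level of 6 choroid plexus markers, Ttr among them, ran from -0.66 to 4.53 in WT and from -2.97 to 5.08 in APP/PS1 arrays; WT array 3 alone exceeded 0.78 among WT arrays, whereas 5 of 7 APP/PS1 arrays did. Of 3 neuron markers none passed, with levels of 6.54 to 6.92 in WT and 6.34 to 6.59 in APP/PS1 arrays, and the hippocampal granule and pyramidal markers gave overlapping levels of 1.99 to 2.28 and 1.77 to 2.35. The 2 measured cortex markers averaged 0.51 over the WT arrays and -0.05 over the APP/PS1 arrays, and neither passed the test. The part that these features had in the results was not tested, except where a value is given.

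Over all genes, 1298 of 25599 were called (5.07%), 688 higher (2.69%) and 610 lower (2.38%). The microglial and immune list supplied 164 of the rises and no fall. Outside it, 758 of 15773 genes with a symbol were called (4.81%), of which 281 rose (1.78%) and 477 fell (3.02%). The percentages called in the gene lists below are to be read beside the 5.07% of all genes. Which direction had more calls depended on the setting: 359 rose and 338 fell with the 75th percentile taken over probes well above background on all arrays, 120 and 367 with the deposited value table, 253 and 254 averaging all kept probes of a gene, 112 and 98 over the 13 vehicle arrays alone, and 103 and 48 with no filter on dim probes. Rises also outnumbered falls without APP/PS1 array 1 (147 and 140), WT array 2 (115 and 97), WT array 5 (144 and 126) or WT array 6 (108 and 75), on the background-subtracted signal (174 and 146) and with slide as a block (12 and 8). Most of these differences were small: 117 exceeded 1.5-fold and 21 exceeded 2-fold. The groups did not overlap at 239 of the 758, and at 600 of all 25599 genes (2.34%). Among the 15773 genes with a symbol outside the list, 141 were higher and 188 lower without overlap. The 758 were called on these same arrays, so a larger share among them follows from how they were chosen. Without WT array 6 the 758 calls became 183, and without WT array 3 they became 1490; without both WT array 3 and APP/PS1 array 3 they became 2564.

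Within slide 1, where 2 APP/PS1 arrays faced the same 6 WT arrays, all 758 genes differed in the direction they had over all arrays, and 464 of them by at least as much. The 281 rises had a median difference of 0.51 over all arrays and 0.52 within slide 1, and the 477 falls had medians of -0.34 and -0.37. The slide 1 arrays are part of the full comparison, so this is not independent of it. With slide as a fixed block, which gives the slide 1 difference, 76 genes were called (0.297%), and 18 of the 758 stayed called; within slide 1 alone 22 genes were called (0.0859%). An unadjusted p under 0.05 there was found for 5183 of all 25599 genes, and for 661 of the 758, which were chosen with the same WT arrays.

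**Figure D1:**
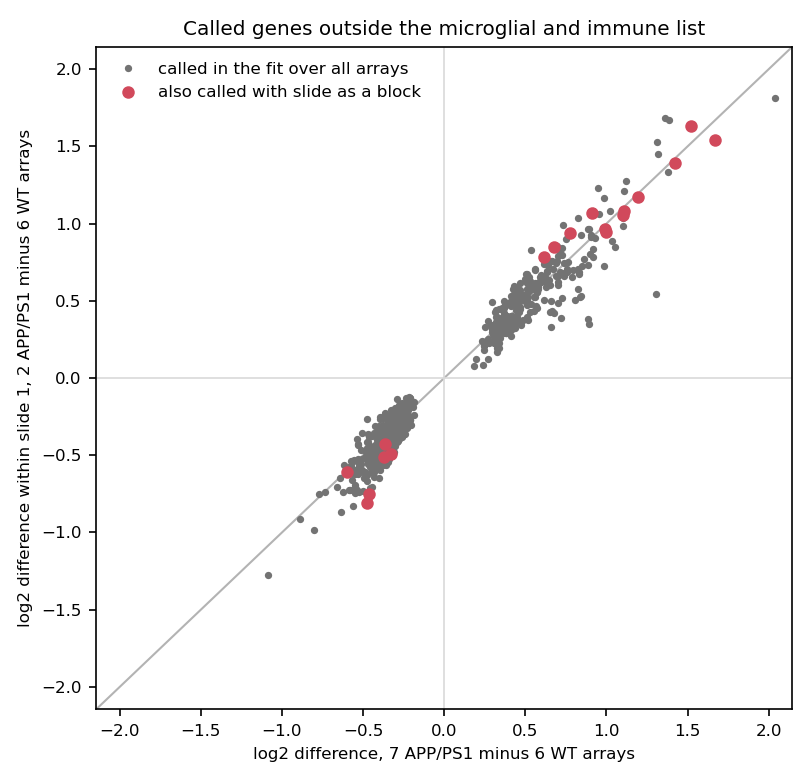
Difference within slide 1 (vertical axis, log2, 2 APP/PS1 minus 6 WT arrays) against the difference over all arrays (horizontal axis, log2, 7 minus 6 arrays) for the 758 called genes outside the microglial and immune list, with the line of equality. All points have the same sign on both axes, and the 18 red points are genes also called with slide as a block.

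Among the 12 largest rises outside the list, Prnp included, several were genes known from cells of the blood lineage, to which microglia are related. The list need not hold every gene that microglia express, so being outside it does not set a gene apart from the microglial rises. The part of microglia in the rises described here and below was not tested. Lat2, a membrane adaptor of immune receptor signalling, had levels of -4.92 to -3.84 (median -4.36) in WT and -3.09 to -2.78 (median -2.92) in APP/PS1 arrays. Its groups did not overlap, and it rose 2.69-fold (difference 1.43, SE 0.17, limma adjusted p = 5.68e-05; 1.39 within slide 1); its signal cleared the background on 5 of the 6 WT arrays. Myo1f, an unconventional myosin of immune cells, lay between -2.05 and -1.31 (median -1.68) in WT and between -0.77 and -0.23 (median -0.46) in APP/PS1 arrays. Again all APP/PS1 arrays were higher, by 1.20 (SE 0.13, adjusted p = 2.28e-05; 1.17 within slide 1). Hcst, the adaptor that carries the signal of the NKG2D receptor, ran from -2.67 to -2.38 (median -2.53) in WT and from -1.82 to -0.98 (median -1.41) in APP/PS1 arrays, a rise of 1.11 (SE 0.12, adjusted p = 3.27e-05). Wfdc17, a secreted protein of activated macrophages, rose by 1.52 (SE 0.21, adjusted p = 0.00031), from -4.46 to -2.96 in WT to between -2.35 and -1.57 in APP/PS1 arrays. All 4 kept the call with slide as a block and with each array left out in turn.

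Other rises of this size were less even between arrays. Rab7b, a GTPase of late endosomes, rose by 1.12 (SE 0.22, adjusted p = 0.0073), with WT levels of -1.69 to -0.32 and APP/PS1 levels of -0.80 to 0.31 that overlapped. Hlx, a homeobox transcription factor, rose by 1.39 (SE 0.39, adjusted p = 0.0484), but was well above background on 1 of 6 WT and 5 of 7 APP/PS1 arrays. Pon3, a lactonase of the paraoxonase family, rose by 1.38 (SE 0.38, adjusted p = 0.0445), with WT array 3 at 0.39 inside the APP/PS1 range of -0.76 to 1.07. Pnp2, a purine nucleoside phosphorylase, rose by 1.32 (SE 0.35, adjusted p = 0.0402). Spem2 rose by 1.30 (SE 0.36, adjusted p = 0.0456), but APP/PS1 array 3 stood at 0.17 against -2.73 to -1.64 in the other 6, and the difference within slide 1 was 0.55. Hlx, Pon3, Pnp2 and Spem2 each lost the call in at least 10 of the 13 fits that left out 1 array, with adjusted p up to 0.124, whereas Rab7b kept it in all 13.

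With slide as a block, the rises outside the list with the smallest p also included Anxa3, Rasal3, Phf11d and the astrocyte genes Gfap and Aspg. Anxa3, a calcium-dependent membrane-binding annexin, lay between 0.47 and 0.94 (median 0.80) in WT and between 1.14 and 1.72 (median 1.65) in APP/PS1 arrays. It rose by 0.77 over all arrays (SE 0.10, adjusted p = 0.000243) and by 0.94 within slide 1, and both of its probes rose. Rasal3, a Ras GTPase-activating protein of blood-lineage cells, rose by 0.67 (SE 0.12, adjusted p = 0.003), and its groups did not overlap.

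Phf11b and Phf11d, genes on chromosome 14 of a family of PHD finger proteins, rose together. Phf11d ran from -2.39 to -1.86 (median -2.06) in WT and from -1.65 to -0.74 (median -1.28) in APP/PS1 arrays, a rise of 0.91 (SE 0.14, limma adjusted p = 0.00106; 1.07 within slide 1) with no overlap. Phf11b rose by 1.36 (SE 0.29, adjusted p = 0.013; 1.69 within slide 1), from -4.05 to -2.58 in WT to between -3.14 and -1.09 in APP/PS1 arrays, which overlapped. Each gene had 1 kept probe, and whether these probes tell the related genes apart was not tested. The promoters of Phf11b and Phf11d are shown because these related genes moved together. Each window is from RefSeq (GRCm38.p6), 250 bases before to 50 after the gene's start on the minus strand of chromosome 14, chr14:59341281-59341580 for Phf11b and chr14:59365441-59365740 for Phf11d. Capitals mark the core of the interferon response element, GAAA followed by any 2 bases and GAAA again, searched on both strands.
Phf11b: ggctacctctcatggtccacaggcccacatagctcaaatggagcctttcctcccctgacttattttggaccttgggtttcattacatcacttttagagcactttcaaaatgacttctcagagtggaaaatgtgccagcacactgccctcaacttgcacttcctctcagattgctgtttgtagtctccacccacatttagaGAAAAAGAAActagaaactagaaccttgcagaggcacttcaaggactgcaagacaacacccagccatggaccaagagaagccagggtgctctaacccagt
Phf11d: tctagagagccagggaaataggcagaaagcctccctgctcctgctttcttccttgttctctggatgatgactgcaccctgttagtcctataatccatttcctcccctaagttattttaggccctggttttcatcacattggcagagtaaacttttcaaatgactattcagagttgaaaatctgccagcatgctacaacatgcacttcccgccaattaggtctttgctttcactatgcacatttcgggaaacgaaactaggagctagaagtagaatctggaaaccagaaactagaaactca
The Phf11b window held 1 match, from 50 to 41 bases before the start, and these letters are not in the Phf11d window. Of 12729 tested genes with a promoter window, 3.72% had a match. A match is a description of letters and not of a bound site. Windows were held for 73.7% of the rises and 77.4% of the falls outside the list, too few for a comparison between sets of called genes. Matches were counted in those sets too, but their shares were not tested and are not reported here.

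**Figure D2:**
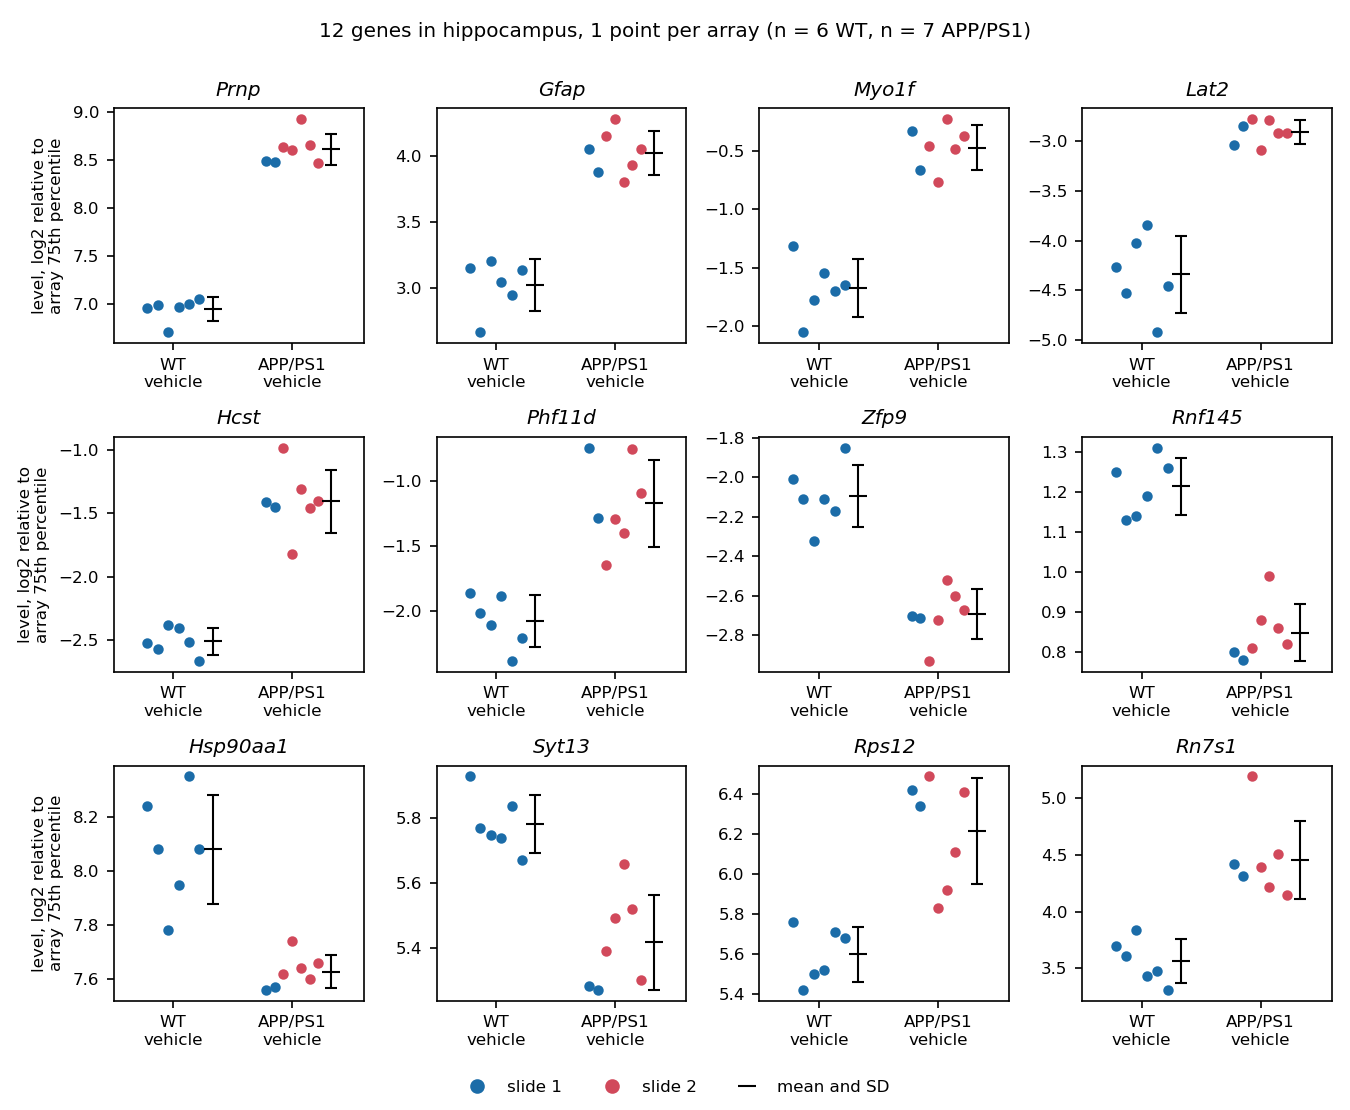
Level (vertical axis, log2 relative to the array's 75th percentile) of 12 genes in each array, coloured by slide, with the mean and SD beside each group (n = 6 and n = 7). Prnp, Gfap, Myo1f, Lat2, Hcst, Phf11d, Rps12 and Rn7s1 were higher and Zfp9, Rnf145, Syt13 and Hsp90aa1 lower in every APP/PS1 array than in every WT array. The 12 were picked from the named genes and are not typical. The groups did not overlap at 239 of the 758 called genes outside the list and at 2.34% of all genes tested.

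Of 24 measured genes of reactive astrocytes 5 rose (20.8%), with a median difference of 0.32 against 0.00255 over all genes tested and 0.36 within slide 1; 3 members lay below 0. Gfap, the intermediate filament of astrocytes, lay between 2.66 and 3.20 (median 3.09) in WT and between 3.80 and 4.28 (median 4.05) in APP/PS1 arrays, a 2-fold rise with no overlap (SE 0.12 on the log2 scale, limma adjusted p = 5.68e-05). Aspg, an asparaginase, rose by 0.99 (SE 0.12, adjusted p = 0.000121), from -0.73 to -0.11 in WT to between 0.07 and 0.94 in APP/PS1 arrays. Osmr, the oncostatin M receptor, rose by 0.72 (SE 0.10, adjusted p = 0.000466) with no overlap and by 0.52 within slide 1. Srgn, a proteoglycan core protein, rose by 0.57 (SE 0.11, adjusted p = 0.00743). The fifth was the complement gene C4b, also on the microglial list. Gfap and Aspg kept the call with slide as a block, and Osmr and Srgn did not (adjusted p = 0.123 and 0.201).

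Of 30 genes of astrocyte identity and transport 3 rose (10%), with a median difference of 0.20 and 0.24 within slide 1. The water channel gene Aqp4 rose from 1.88 to 2.32 (median 2.02) in WT to between 2.29 and 2.70 (median 2.56) in APP/PS1 arrays, a difference of 0.47 (SE 0.09, adjusted p = 0.00765). The urea transporter gene Slc14a1 rose by 0.43 (SE 0.09, adjusted p = 0.00986) and S100b, a calcium-binding protein, by 0.30 (SE 0.08, adjusted p = 0.0418). All 3 pairs of groups overlapped slightly, and none was called with slide as a block (adjusted p = 0.231, 0.232 and 0.246). S100b lost the call in 7 of the 13 fits that left out 1 array (adjusted p up to 0.106). The count of 3 ran from 2, without APP/PS1 array 1 among others, to 6 without WT array 3, and 8 of the 30 members lay below 0.

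The largest falls outside the list were in genes of Wnt and hedgehog signalling. Lgr5, the R-spondin receptor that strengthens Wnt signals, fell 2.12-fold (difference -1.08, SE 0.27, limma adjusted p = 0.0288), from -3.56 to -2.33 (median -2.94) in WT to between -4.79 and -2.87 (median -4.19) in APP/PS1 arrays. Shh, the hedgehog ligand, lay between -2.37 and -1.95 (median -2.13) in WT and between -3.63 and -2.31 (median -3.11) in APP/PS1 arrays, a fall of 1.85-fold (difference -0.89, SE 0.17, adjusted p = 0.00812). Sfrp2, a secreted Wnt-binding protein, lay between -2.84 and -2.24 in WT and between -3.84 and -2.89 in APP/PS1 arrays with no overlap, 1.75-fold lower (difference -0.80, SE 0.17, adjusted p = 0.0146). Acvr2a, an activin receptor, fell 1.54-fold (SE 0.16 on the log2 scale, adjusted p = 0.0342), and Id3, a target of BMP signals, rose 1.37-fold (SE 0.10, adjusted p = 0.0125). These 5 were all the calls among 93 measured genes of the Wnt, hedgehog, BMP and TGF-beta list (5.38%, close to the 5.07% of all genes), whose median difference was -0.03, and 0.00847 with normexp background correction.

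All 5 had the same sign within slide 1, at -1.27 for Lgr5, -0.91 for Shh, -0.98 for Sfrp2, -0.74 for Acvr2a and 0.45 for Id3, but with slide as a block their adjusted p ran from 0.118 to 0.179. Leaving out 1 array ended the call of Lgr5 in 6 of 13 fits and of Acvr2a in 9 (adjusted p up to 0.0819 and 0.0922), and ended that of Shh, Sfrp2 and Id3 in none.

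The remaining large falls had no common role. Zfp9, a zinc finger protein, was the most even of them: it lay between -2.32 and -1.85 (median -2.11) in WT and between -2.93 and -2.52 (median -2.70) in APP/PS1 arrays. Every APP/PS1 array was below every WT array, with a difference of -0.60 (SE 0.08, limma adjusted p = 0.000285) over all arrays and -0.61 within slide 1. Rgs16, which shortens G protein signals, fell 1.58-fold (SE 0.16 on the log2 scale, adjusted p = 0.0254), Lama3, a laminin chain, 1.56-fold (SE 0.17, adjusted p = 0.0388) and Mc4r, the melanocortin receptor, 1.5-fold (SE 0.16, adjusted p = 0.0404). Tmem169, Trim66 and the amino acid transporter gene Slc36a1 fell 1.67-fold, 1.54-fold and 1.5-fold (SE 0.17, 0.17 and 0.14). The groups overlapped at each of these 6, and each lost the call in 2 to 9 of the 13 fits that left out 1 array, with adjusted p up to 0.104. Slide 1 differences ran from -0.74 for Tmem169 to -0.56 for Trim66.

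Apart from Zfp9, 5 genes with a plain symbol outside the list fell both over all arrays and with slide as a block: Nsf, Cnot9, Syt13, Rnf145 and Timm29. Nsf, the ATPase that takes SNARE complexes apart after fusion, lay between 7.02 and 7.51 (median 7.43) in WT and between 6.55 and 7.19 (median 6.99) in APP/PS1 arrays. It fell (difference -0.48, SE 0.11, limma adjusted p = 0.0222), with a difference of -0.81 within slide 1, and its 2 dimmer probes differed by -0.07 and 0.04 (adjusted p = 0.791 and 0.904). Cnot9, a subunit of the CCR4-NOT deadenylase, fell (difference -0.47, SE 0.10, adjusted p = 0.0178; -0.75 within slide 1), and Timm29, of the mitochondrial inner membrane translocase, fell too (difference -0.33, SE 0.07, adjusted p = 0.0191). Rnf145, a ubiquitin ligase of the endoplasmic reticulum, ran from 1.13 to 1.31 (median 1.22) in WT and from 0.78 to 0.99 (median 0.82) in APP/PS1 arrays. Its difference of -0.36 (SE 0.06, adjusted p = 0.00102) came without overlap, though its 2 dimmer probes differed by 0.17 and 0.20 (adjusted p = 0.595 and 0.615).

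Of the 6 genes, windows were held for Nsf, Cnot9, Rnf145 and Timm29, and the first pair is shown, chosen after the search, because both held the site of the transcription factor NRF1, GCGCA followed by any base and GCGC, in capitals (both strands searched). The windows, from RefSeq GRCm38.p6, are chr11:103954007-103954306 on the minus strand for Nsf and chr1:74505810-74506109 on the plus strand for Cnot9.
Nsf: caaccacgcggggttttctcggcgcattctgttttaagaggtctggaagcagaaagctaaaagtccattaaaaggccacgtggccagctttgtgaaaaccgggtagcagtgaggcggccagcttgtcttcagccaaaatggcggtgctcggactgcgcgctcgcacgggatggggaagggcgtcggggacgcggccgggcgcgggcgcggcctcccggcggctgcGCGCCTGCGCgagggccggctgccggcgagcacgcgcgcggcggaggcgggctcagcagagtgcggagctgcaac
Cnot9: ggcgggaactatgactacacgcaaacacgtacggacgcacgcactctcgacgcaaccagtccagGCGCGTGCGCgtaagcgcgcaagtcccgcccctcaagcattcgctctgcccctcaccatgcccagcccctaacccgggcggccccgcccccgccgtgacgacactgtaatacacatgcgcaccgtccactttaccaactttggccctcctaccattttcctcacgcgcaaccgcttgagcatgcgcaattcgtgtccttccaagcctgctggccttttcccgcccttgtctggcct
Each had 1 match, from 25 to 16 bases before the start of Nsf and from 186 to 177 bases before that of Cnot9, both on the opposite strand. A match also lay from 36 to 27 bases before the start in 1 of the 3 windows of Rnf145, and these letters are not in the window of Timm29. Of 12729 tested genes with a window 9.67% had a match to these letters. For the letters GAGGAAGT of the PU.1 factor and TGACGTCA of the cAMP response element, the share was 3.46% and 3.32%.

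Of 64 measured genes of presynaptic vesicle release 9 fell and none rose (14.1%), and 60 had a difference below 0, with a median of -0.33 over all arrays and -0.36 within slide 1. The mean level of the list was 3.01 to 3.27 in WT and 2.55 to 3.17 in APP/PS1 arrays: 6 of 7 APP/PS1 arrays, all but array 5, lay below every WT array. The 3 neuron markers, 2 of them also on this list and none past the test, each differed by -0.29, close to the list's median, and their part in this and the other neuronal lists was not tested. Syt13, a synaptotagmin, lay between 5.67 and 5.93 in WT and between 5.27 and 5.66 in APP/PS1 arrays, 1.29-fold lower with no overlap (difference -0.37, SE 0.08, limma adjusted p = 0.0111; -0.51 within slide 1). The vesicle protein gene Syngr1 is counted among the 9, but its probes disagreed: the brighter fell (difference -0.48, SE 0.11) and the other rose by 1.22 (SE 0.10, adjusted p = 1.18e-06 over all probes).

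The count of 9 moved with single arrays, from 2 without WT array 2 to 19 without WT array 3, and was 26 without both WT array 3 and APP/PS1 array 3. With the choroid plexus marker level as a covariate 8 members fell, with the sex of the arrays 19, and with slide as a block 2, Nsf and Syt13.

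**Figure D3:**
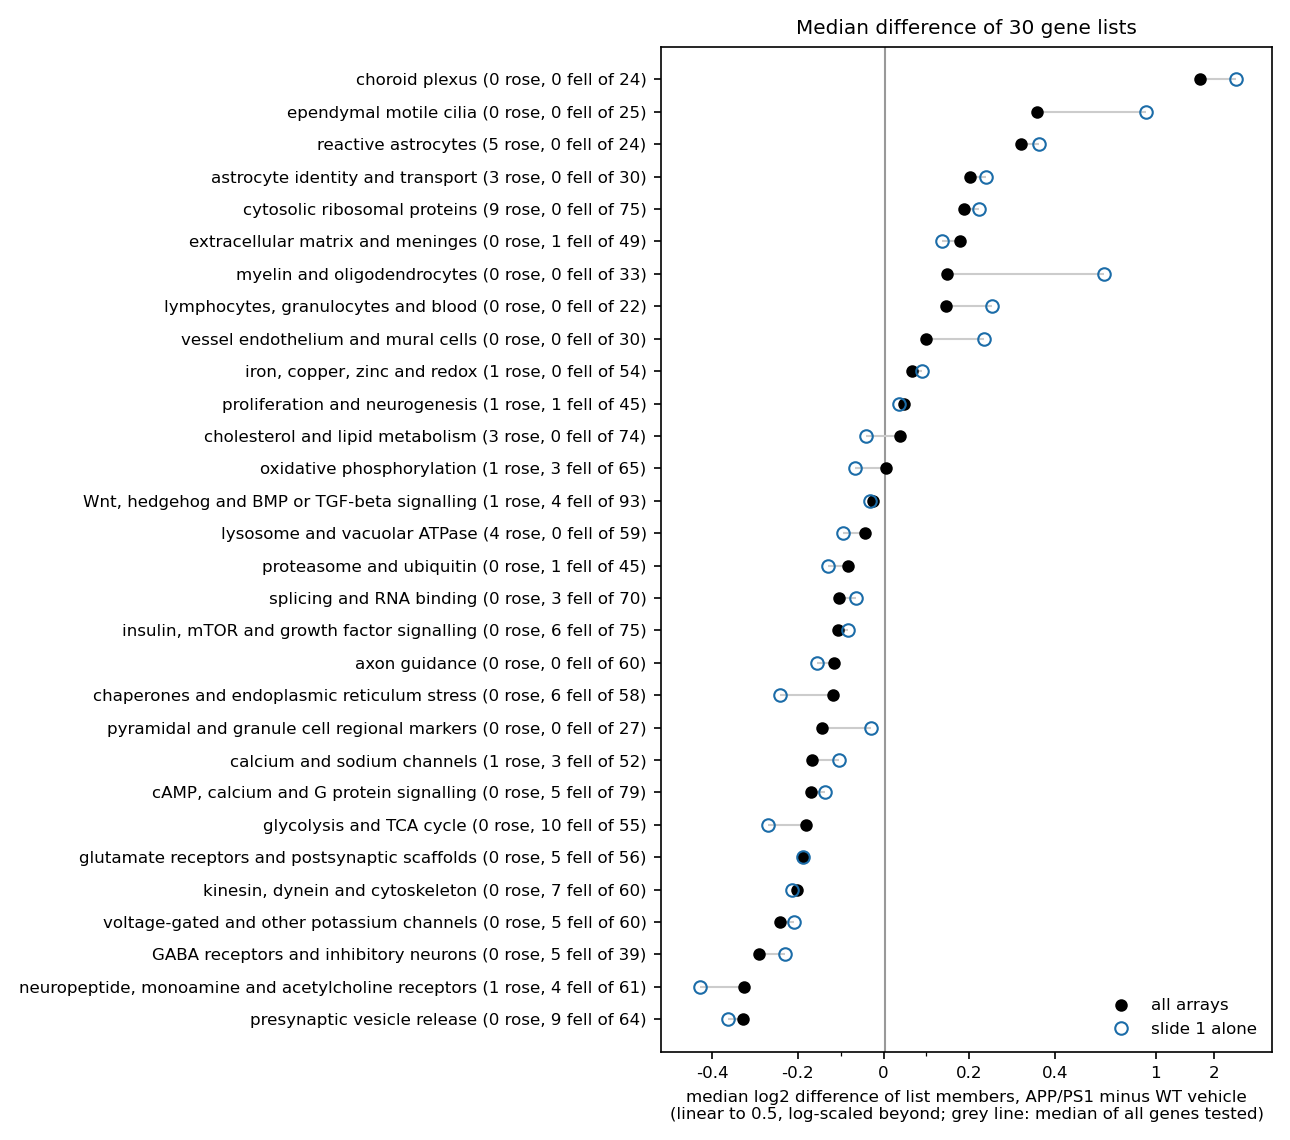
Median log2 difference (horizontal axis) of the measured members of 30 gene lists over all arrays (filled) and within slide 1 (open), with the number that rose and fell. Presynaptic, receptor and channel lists lie to the left, at -0.33 for presynaptic vesicle release, and astrocyte and ribosomal protein lists to the right; the choroid plexus list, at 1.69, had no called member.

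Of 60 measured potassium channel genes, 5 fell and none rose (8.33%), with 51 below 0 and a median of -0.24 (-0.21 within slide 1). Kcnc1 and Kcnc2 encode Kv3 channels, which let fast-spiking neurons fire at high rates. Kcnc1 lay between 1.91 and 2.27 (median 2.10) in WT and between 1.20 and 1.89 (median 1.65) in APP/PS1 arrays with no overlap, 1.43-fold lower (difference -0.51, SE 0.11, limma adjusted p = 0.0148). Kcnc2 fell 1.56-fold (difference -0.64, SE 0.16, adjusted p = 0.0284; -0.87 within slide 1), Kcnv1, a modulatory subunit, 1.44-fold (SE 0.12, adjusted p = 0.018) and Kcnn2, a calcium-activated channel, 1.27-fold (SE 0.09, adjusted p = 0.0396). A dimmer Kcnc2 probe differed by -0.01. The fifth, Kcna2, was outside the rule for named genes. Kcnc1 kept the call in every fit that left out 1 array, and Kcnc2 and Kcnn2 lost it in 7 and 9 of 13; without WT array 6 the count was 1 and without APP/PS1 array 5 it was 11.

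Of 52 calcium and sodium channel and pump genes 3 fell and 1 rose (7.69%, against 5.07% of all genes called), with a median of -0.17. The endoplasmic reticulum calcium pump gene Atp2a2 fell 1.28-fold (SE 0.09, adjusted p = 0.039), the T-type channel gene Cacna1i 1.42-fold (SE 0.14, adjusted p = 0.0447) and the sodium channel subunit gene Scn2b 1.20-fold (SE 0.07, adjusted p = 0.0499). The dimmer probe of Cacna1i differed by 0.05, and those of Atp2a2 by -0.14 and -0.03. Itpr2, an IP3 receptor common in astrocytes, rose 1.24-fold (SE 0.09, adjusted p = 0.0496). All 4 lost the call in 10 or 11 of the 13 fits that left out 1 array, and without APP/PS1 array 1 none of the 52 was called; without APP/PS1 array 5, 8 fell.

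Of 56 glutamate receptor and postsynaptic scaffold genes 5 fell (8.93%), and the median of -0.19 was the same within slide 1. Slitrk1, a postsynaptic adhesion protein, lay between 2.37 and 3.08 (median 2.75) in WT and between 1.98 and 2.59 (median 2.20) in APP/PS1 arrays, a fall of 1.46-fold (difference -0.55, SE 0.11, limma adjusted p = 0.00957). The related Slitrk3 fell 1.33-fold (SE 0.11, adjusted p = 0.0338), the AMPA receptor subunit gene Gria3 1.23-fold (SE 0.08, adjusted p = 0.0394) and the kainate receptor gene Grik3 1.48-fold (SE 0.16, adjusted p = 0.0486). Lrrc4c was the fifth. Slitrk1 alone of the 4 kept the call with each array left out, and the count ran from 1 without APP/PS1 array 1 or WT array 1 to 14 without WT array 3.

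Of 39 genes of GABA receptors and inhibitory neurons 5 fell (12.8%), 35 were below 0, and the median was -0.29 (-0.23 within slide 1). The GABA-B receptor gene Gabbr1 fell without overlap, from 4.49 to 4.65 in WT to between 4.08 and 4.39 (difference -0.29, SE 0.07, adjusted p = 0.021). Its dimmer probe differed by -0.04. Nlgn2, the adhesion protein of inhibitory synapses, fell 1.34-fold (SE 0.09, adjusted p = 0.0174) and Gphn, the scaffold that holds the receptors there, 1.20-fold (SE 0.07, adjusted p = 0.0384). Gabrb2, a GABA-A receptor subunit gene outside the rule for named genes, fell too (difference -0.33, SE 0.10, adjusted p = 0.0498). Without WT array 6 none of the 39 was called, and without APP/PS1 array 5 there were 11.

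Among receptors for neuropeptides, monoamines and acetylcholine, with their peptides, 4 of 61 fell and 1 rose (8.2%), 55 were below 0, and the median was -0.33 (-0.43 within slide 1). Chrnb2, a nicotinic receptor subunit, lay between 0.88 and 1.22 (median 0.93) in WT and between 0.23 and 0.82 (median 0.62) in APP/PS1 arrays, 1.34-fold lower with no overlap (difference -0.42, SE 0.09, limma adjusted p = 0.0133; -0.43 within slide 1). The muscarinic receptor gene Chrm1 fell 1.32-fold (SE 0.10, adjusted p = 0.0263; difference -0.58 within slide 1), the VIP receptor gene Vipr1 1.32-fold (SE 0.10, adjusted p = 0.0269) and the serotonin receptor gene Htr7 1.47-fold (SE 0.16, adjusted p = 0.0489). The dimmer probe of Vipr1 differed by 0.02. The rise was in Nmb, which encodes neuromedin B. Downstream of such receptors, 5 of 79 genes of cAMP, calcium and G protein signalling fell (6.33%, close to the 5.07% of all genes called) with a median of -0.17. Gnas, the stimulatory G protein subunit, fell from 8.6 to 8.98 (median 8.79) in WT to between 8.27 and 8.65 (median 8.39) in APP/PS1 arrays (difference -0.38, SE 0.08, adjusted p = 0.0149). Akap5, which anchors protein kinase A at synapses, fell 1.44-fold (SE 0.13, adjusted p = 0.031) and Prkaca, its catalytic subunit, 1.22-fold (SE 0.08, adjusted p = 0.0467). Without APP/PS1 array 1 only 1 member of each list fell, and without WT array 3 the receptor list had 6 and the signalling list 9.

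Of 60 genes of kinesins, dynein and the cytoskeleton 7 fell and none rose (11.7%), with 51 below 0 and a median of -0.20 (-0.21 within slide 1). Pafah1b1, the dynein regulator LIS1, lay between 5.03 and 5.43 (median 5.27) in WT and between 4.74 and 5.15 (median 4.85) in APP/PS1 arrays, a fall of 1.29-fold (difference -0.37, SE 0.08, limma adjusted p = 0.0115). The tubulin gene Tuba1b fell 1.39-fold (SE 0.12, adjusted p = 0.0273; difference -0.67 within slide 1), the dynactin subunit gene Dctn1 1.20-fold (SE 0.07, adjusted p = 0.0338) and the dynein chain gene Dync1li2 1.17-fold (SE 0.06, adjusted p = 0.0407). The dimmer probe of Dync1li2 differed by 0.04. Pafah1b1 kept the call with each array left out, and the others lost it in 7 to 10 fits. The count of 7 became 1 without APP/PS1 array 1, APP/PS1 array 7, WT array 2, WT array 5 or WT array 6, and 11 without APP/PS1 array 5 or WT array 3.

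Energy metabolism showed falls in the enzymes of the cytosol and the mitochondrial matrix. Of 55 genes of glycolysis and the TCA cycle 10 fell and none rose (18.2%), with 45 below 0 and a median of -0.18 (-0.27 within slide 1). Mdh2, the mitochondrial malate dehydrogenase, lay between 8.16 and 8.58 (median 8.36) in WT and between 7.81 and 8.16 (median 7.90) in APP/PS1 arrays, a fall of 1.35-fold (difference -0.43, SE 0.09, limma adjusted p = 0.00957; -0.52 within slide 1). Got2, the mitochondrial aspartate aminotransferase, fell 1.25-fold (SE 0.08, adjusted p = 0.022), and the glycolytic genes Pgk1 and Gapdh fell 1.31-fold and 1.30-fold (SE 0.09 and 0.10, adjusted p = 0.0249 and 0.0321) with larger differences within slide 1, at -0.59 and -0.55. The other 6 were Hk1, Aldoa, Idh3a, Dlst, Sucla2 and Mdh1. The count was 1 without APP/PS1 array 1 and 19 without WT array 3, and was 0 with the background-subtracted signal before dye normalization and 1 with the deposited value table.

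Of 65 nuclear genes of oxidative phosphorylation 3 fell and 1 rose (6.15%, close to the 5.07% of all genes called), with a median of 0.00587. Those that fell were Ndufa10 of complex I (1.27-fold, SE 0.09, adjusted p = 0.0356) and the ATP synthase subunit genes Atp5b (1.28-fold, SE 0.09, adjusted p = 0.0385) and Atp5a1 (1.23-fold, SE 0.08, adjusted p = 0.0395). The dimmer probes of Atp5b differed by -0.15 and -0.0039. Another ATP synthase subunit gene, Atp5e, rose 1.33-fold (SE 0.11, adjusted p = 0.0409), from 6.24 to 6.43 in WT to between 6.56 and 7.31 in APP/PS1 arrays, with APP/PS1 array 3 highest. None was called with slide as a block (adjusted p = 0.172 to 0.314), and the number that fell was 0 without APP/PS1 array 1 among others and 10 without APP/PS1 array 3.

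Genes of chaperones and ubiquitin were among the abundant transcripts that fell. Of 58 chaperone and endoplasmic reticulum stress genes 6 fell and none rose (10.3%), with a median of -0.12 (-0.24 within slide 1). Hsp90aa1, the inducible cytosolic HSP90, lay between 7.78 and 8.35 (median 8.08) in WT and between 7.56 and 7.74 (median 7.62) in APP/PS1 arrays with no overlap, 1.37-fold lower (difference -0.45, SE 0.09, limma adjusted p = 0.0105). Its constitutive partner Hsp90ab1 fell 1.26-fold (SE 0.08, adjusted p = 0.0244), also without overlap, and the constitutive HSP70 gene Hspa8 1.27-fold (SE 0.09, adjusted p = 0.0291). Dnajb4, a cochaperone, fell 1.22-fold (SE 0.07, adjusted p = 0.0278). Of 45 proteasome and ubiquitin genes 1 fell (2.22%), the polyubiquitin gene Ubb (1.31-fold, SE 0.09, adjusted p = 0.023). Hsp90aa1 kept the call with each array left out and the other 4 lost it in 4 to 6 fits. The chaperone count of 6 became 1 without APP/PS1 array 1, WT array 5 or WT array 6, and was at most 8 with 1 array left out.

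Of 75 measured genes of cytosolic ribosomal proteins, 9 rose and none fell (12%), and 73 were above 0, with a median of 0.19 (0.22 within slide 1). Their mean level was 5.97 to 6.30 in WT and 6.15 to 6.67 in APP/PS1 arrays, so the groups overlapped, and APP/PS1 array 3 was highest. Rps12 lay between 5.42 and 5.76 (median 5.60) in WT and between 5.83 and 6.49 (median 6.34) in APP/PS1 arrays. It rose 1.53-fold (difference 0.62, SE 0.11, limma adjusted p = 0.0043), with a difference of 0.78 within slide 1. Rps12 was called with slide as a block in the fit of all arrays (adjusted p = 0.0498), but not within slide 1 alone (adjusted p = 0.0685). Rpl22 rose 1.43-fold (SE 0.09, adjusted p = 0.00233), Rps27 1.38-fold (SE 0.08, adjusted p = 0.00501) and Rpl34 1.37-fold (SE 0.09, adjusted p = 0.00957). The groups did not overlap at any of these 4, and all 4 kept the call with each array left out. Many ribosomal protein genes have near-identical pseudogene copies, which a probe may not tell apart. With quantile normalization 28 of the 75 rose and without WT array 6 there were 4; without both WT array 3 and APP/PS1 array 3 the median was 0.09.

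Genes of the lysosome rose at 4 of 59 members (6.78%, close to the 5.07% of all genes called), while the list's median was -0.04. Of these 59, 0 were also on the microglial and immune list, so any lysosomal gene set aside there is not counted here. Gusb, the lysosomal beta-glucuronidase, lay between -0.30 and 0.27 (median -0.02) in WT and between 0.42 and 0.69 (median 0.59) in APP/PS1 arrays, a 1.51-fold rise with no overlap (difference 0.59, SE 0.09, limma adjusted p = 0.0011; 0.65 within slide 1). Man2b1, a lysosomal mannosidase, rose 1.30-fold (SE 0.07, adjusted p = 0.0044) and Hexa, a hexosaminidase subunit that degrades gangliosides, 1.25-fold (SE 0.06, adjusted p = 0.00458), both without overlap. Npc2, which moves cholesterol out of lysosomes, rose 1.39-fold (SE 0.11, adjusted p = 0.0258). Hexa and Npc2, together with the fatty acid desaturase gene Fads1 (1.24-fold, SE 0.07, adjusted p = 0.0273), were also the 3 rises among 74 genes of cholesterol and lipid metabolism (4.05%, median 0.04 over all arrays and -0.04 within slide 1). Of 54 genes of iron, copper, zinc and redox 1 rose (1.85%), the glutathione peroxidase gene Gpx1 (1.32-fold, SE 0.08, adjusted p = 0.01), with no overlap between groups. Gusb, Man2b1, Hexa and Gpx1 kept the call with each array left out. Without APP/PS1 array 3, 6 of the 59 lysosome genes rose and 5 fell, and the 3 rises in lipid metabolism became 1 without APP/PS1 array 1 and 7 without WT array 3.

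In growth factor and kinase signalling 6 of 75 genes fell (8%), with a median of -0.11. Nrg3, a neuregulin ligand, fell 1.33-fold (SE 0.09, limma adjusted p = 0.0129), the stress kinase genes Mapk9 and Mapk10 fell 1.22-fold and 1.27-fold (SE 0.06 and 0.09, adjusted p = 0.0219 and 0.0326), and Prkaa2, a catalytic subunit of AMPK, fell 1.30-fold (SE 0.10, adjusted p = 0.0369). The dimmer probes of Mapk9 and Mapk10 did not fall, and each differed by 0.08. Of 70 splicing and RNA-binding genes 3 fell (4.29%, median -0.11): Hnrnpul2 (1.23-fold, SE 0.06, adjusted p = 0.0128), Hnrnpa0 (1.22-fold, SE 0.06, adjusted p = 0.0148) and Srrm4, a neuronal splicing regulator (1.47-fold, SE 0.16, adjusted p = 0.047). The groups did not overlap at Hnrnpul2, Hnrnpa0 and Mapk9, but the dimmer probe of Hnrnpul2 differed by 0.0012. Of 45 genes of proliferation and neurogenesis 1 rose and 1 fell (4.44%): Neurod1, a transcription factor of maturing granule neurons, fell 1.39-fold (SE 0.10, adjusted p = 0.0167), and Tyms, the thymidylate synthase gene, rose 1.18-fold (SE 0.06, adjusted p = 0.0394) with a difference of 0.08 within slide 1. Leaving out 1 array moved the growth factor and kinase count between 1, without APP/PS1 array 1 among others, and 9, without WT array 3 or APP/PS1 array 5, and the splicing count between 2 and 6. Mapk10 lost the call in 7 of the 13 fits, Prkaa2 in 9, and Srrm4 and Tyms in 10 each.

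Of the other lists, 7 had no called member in the limma fit. The regional markers of pyramidal and granule cells (27 measured, median -0.14, and -0.03 within slide 1) had their smallest p at Elavl2 (difference -0.41, SE 0.13, adjusted p = 0.068), and axon guidance (60 measured, median -0.12) at the semaphorin receptor gene Plxna2 (difference -0.32, SE 0.10, adjusted p = 0.069). Myelin and oligodendrocyte genes (33 measured) had a median of 0.15 over all arrays and 0.54 within slide 1, and of -0.08 with the choroid plexus marker level as a covariate, with Pdgfra at -0.16 (SE 0.09, adjusted p = 0.275). Vessel genes (30 measured, median 0.10) included Vwf at 0.56 (SE 0.20, adjusted p = 0.109). The list of lymphocytes, granulocytes and blood (22 measured, median 0.145) included Gzma at 0.50 (SE 0.18, adjusted p = 0.102). Choroid plexus genes (24 measured) were all above 0, with a median of 1.69, and Tmem72 at 3.25 (SE 1.43, adjusted p = 0.176). Tmem72 was well above background on 1 of 6 WT and 5 of 7 APP/PS1 arrays. Motile cilia genes (25 measured, median 0.36, and 0.89 within slide 1) included Hydin at 0.48 (SE 0.18, adjusted p = 0.13). Of 49 genes of extracellular matrix and meninges 1 fell (2.04%), Lama3, with a list median of 0.18. Without both WT array 3 and APP/PS1 array 3, 18 of the 24 choroid plexus genes and 4 of the 33 myelin genes rose.

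Small structured RNAs were higher in APP/PS1 arrays, a class singled out after its values were seen. By the biotype of the gene table, 24 such RNAs were measured (snRNA, snoRNA, scRNA, guide RNA and the RNAs of RNase P and RNase MRP), all 24 were above 0, 12 rose and none fell, with a median of 0.71 over all arrays and 0.70 within slide 1. The U1 snRNA gene Rnu1a1, part of the spliceosome, lay between 3.56 and 4.16 (median 3.79) in WT and between 4.31 and 5.87 (median 4.87) in APP/PS1 arrays, a 2.15-fold rise with no overlap (difference 1.10, SE 0.22, limma adjusted p = 0.00848; 1.04 within slide 1). Rn7s1, the RNA of the signal recognition particle, rose 1.86-fold (SE 0.14, adjusted p = 0.00143), Rn7sk, which holds back the elongation factor P-TEFb, 1.85-fold (SE 0.17, adjusted p = 0.00848) and Rmrp, the RNA of RNase MRP, 1.87-fold (SE 0.16, adjusted p = 0.00427), all without overlap. The snoRNA gene Snora73a rose 1.89-fold (SE 0.19, adjusted p = 0.0135).

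The mean level of the 24 was -0.73 to -0.33 in WT and -0.14 to 0.88 in APP/PS1 arrays, with APP/PS1 array 3 highest; that array also had the lowest signal, 664 intensity units at the 75th percentile, and the lowest share of probes well above background, 51.4%. Without it and WT array 3, 13 of the 24 rose with a median of 0.62, and the number that rose was 11 with the deposited value table and 12 with quantile normalization. None was called with slide as a block. Several of these RNAs have close copies in the genome, and the protocols name a labelling kit without saying which RNAs it primes, so these probes may also measure other transcripts.

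**Figure D4:**
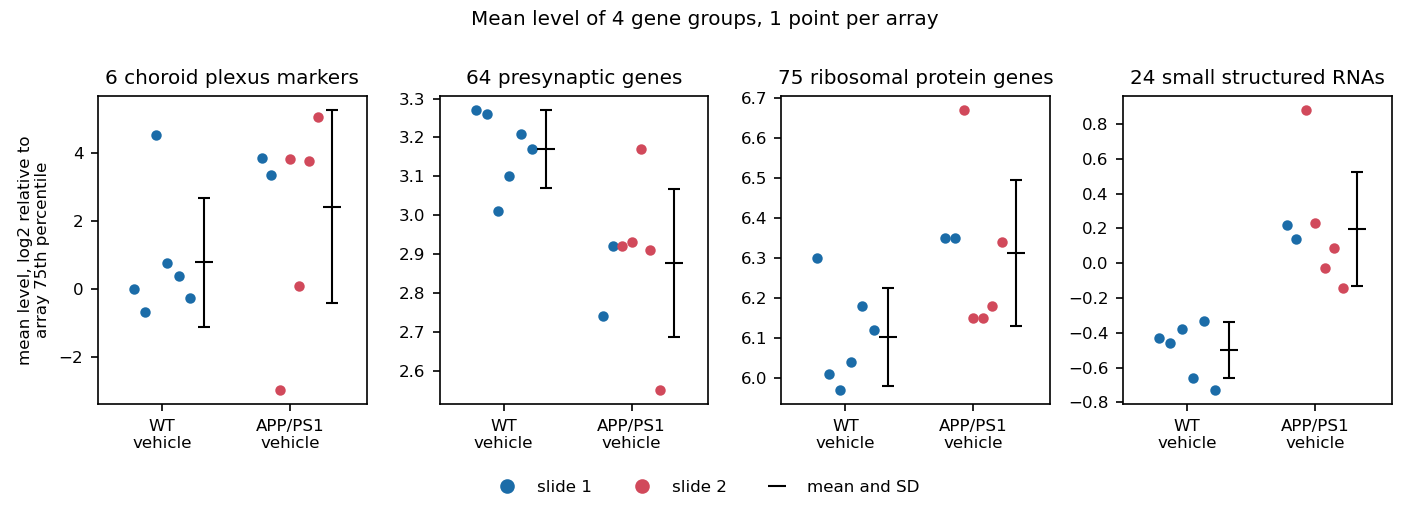
Mean level (vertical axis, log2 relative to the array's 75th percentile) of 4 gene groups in each array, coloured by slide, with the mean and SD beside each group (n = 6 and n = 7). Choroid plexus markers spread from -2.97 to 5.08, presynaptic genes were lower in all APP/PS1 arrays but array 5, ribosomal protein genes overlapped, and small structured RNAs were higher in every APP/PS1 array.

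Among called features without a plain symbol, the largest difference was at a probe named only by the transcript accession NM_020008, which rose by 4.38 (SE 0.32, limma adjusted p = 2.51e-07; 4.51 within slide 1). Its WT levels of -5.17 to -2.79 lay below APP/PS1 levels of -0.35 to 1.06, and its signal cleared the background on 4 of the 6 WT arrays. The microglial and immune list was matched by symbol, so a feature named only by an accession could not be set aside. This one may therefore be a microglial gene. For the next 4 by size, no WT array gave a signal well above background. These 4 passed the filter only through arrays of APP/PS1 mice, so no fold or p is given for them. Gm11545 was well above background on 4 of 7 APP/PS1 vehicle arrays. Its groups overlapped, with the highest WT array at -4.07 and APP/PS1 levels of -4.84 to -2.95.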

How the data were processed

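Agilent scanner files of 19 arrays were used. Per the file headers, Agilent Feature Extraction 12.0.3.1 made the deposited intensity values, with background subtraction and dye normalization; the green (Cy3) channel holds the labelled sample, and what the red channel holds is not given in the sources used here. The log2 of the green processed intensity minus each array's 75th percentile was computed. Probes well above background on at least 6 of the 19 arrays were kept, the brightest standing for its gene. Of 120 named called genes, 50 had more than 1 kept probe, and 12 of these had probes in both directions. limma 3.58.1 (R 4.3.3) was fitted to 3 group means over the 19 arrays, with Benjamini-Hochberg adjustment; limma was tested on simulated data. The deposited value table holds a score, in these data the z-score of log10 green intensity per array (largest difference 0.005), with column medians of -0.28 to -0.17; it served as an alternative. The number of arrays limits the precision. Genes named were the 12 largest rises and falls outside the microglial list, up to 10 per direction called also with slide as a block, up to 4 per list by p, 5 without a plain symbol, and reference genes. Members and lists were chosen with earlier results of these data known. The class of small structured RNAs was added after its values were seen, as were the alternatives named so. Other alternatives changed the background correction, normalization, filter, probe choice, slide, sex and choroid plexus terms and the arrays included. RefSeq promoter windows (GRCm38.p6) matched 82 of 139 named genes by symbol. Some genes that the rule names are not reported here.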

Additional observations from a re-analysis of the deposited data

Results flagged for a closer look

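In 278 pairs of a named gene and a group, 29 had 1 array standing apart from the others by Dixon's criterion; chance gives about 1 in 20. WT array 3 stood apart at 10 of them: it was lowest for Prnp (6.70), Kcnc2 (1.24), Nsf (7.02), Elavl2 (3.55), Slitrk3 (1.56), Nlgn2 (5.2), Htr7 (0.48) and Akap5 (2.53), and highest for Pon3 (0.39) and the choroid plexus gene Tmem72 (-0.17). This array also had the highest choroid plexus marker level of its group, 4.53. With that level as a covariate over all arrays, the group differences were 1.73 for Prnp, 0.94 for Pon3 and 1.49 for Tmem72. They were -0.51 for Kcnc2, -0.41 for Nsf, -0.32 for Elavl2, -0.38 for Slitrk3, -0.37 for Nlgn2, -0.41 for Htr7 and -0.41 for Akap5. The part of that level in this array's own values was not tested.

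APP/PS1 array 3 stood apart at 13, as the highest for Spem2 (0.17), Atp5e (7.31), Hspa8 (7.55), Gpx1 (4.41) and the small RNAs Rn7s1 (5.19), Rn7sk (4.67), Rnu12 (2.33), Rnu3b1 (1.24), Rprl1 (-2.14), Rprl2 (0.33) and Rprl3 (0.33), and as the lowest for Rab7b (-0.80) and Scarna13 (-0.76). APP/PS1 array 5 was highest for Prnp (8.93), Tmem169 (-2.80) and Dctn1 (6.77). WT array 5 was highest for Gm11545 (-4.07) and Snora47 (-1.71), and WT array 1 for App (7.82).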

How the results depend on the processing

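Slide and genotype nearly coincide, and sex, signal and choroid plexus level differ between the groups, which limits every result here. All 1298 calls, then the 758 outside the microglial list, became 804 and 487 with the deposited value table, 358 and 151 with no filter on dim probes, 76 and 20 with slide as a fixed block, 2254 and 1361 with slide as a random block, 22 and 2 within slide 1 alone, 436 and 210 over the 13 vehicle arrays alone, and 1966 and 1206 with sex as a covariate. With the choroid plexus marker level as a covariate they were 1396 and 727. With settings chosen after seeing the data, they became 644 and 320 on the background-subtracted signal before dye normalization, and 3837 and 2564 without both WT array 3 and APP/PS1 array 3. Leaving out 1 array gave 389 to 2262 and 183 to 1490. The fit with slide as a random block estimated a negative correlation within slides (-0.0447). Its larger counts therefore do not show that the calls withstand a slide effect. With the 75th percentile over probes well above background on all arrays, 830 rose and 448 fell, against 688 and 610. With no filter the median difference was 0.0897 over 45375 genes, against 0.00255 over the 25599 tested otherwise. Same-numbered samples were not paired by the data (correlations of -0.209, -0.0556, -0.542, -0.123, 0.116 and 0.189; 1 of 6 correlated best with its own number), and with the replicate number as a block 52 and 12 genes were called. Averaging all kept probes of a gene turned the sign of the difference of Rnf145 (0.000576), the difference of Syngr1 (0.373) and the difference of App (0.0594); no other named gene changed sign under any alternative run.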
